A study of Mus musculus with 9 samples.

Results

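The hypoxia-inducible factors and the oxygen sensors that control them were followed through postnatal maturation of the mouse heart. The 10 genes were chosen by symbol from a table of read counts per gene: the alpha subunits Hif1a, Epas1 and Hif3a, their partner Arnt, the ubiquitin ligase subunit Vhl, the prolyl hydroxylases Egln1, Egln2 and Egln3, the asparaginyl hydroxylase Hif1an, and the angiogenic ligand Vegfa. All 10 had a row among the 15824 of the table, and all 10 passed the filter on low counts. The libraries came from cardiomyocytes of CD-1 (CD1) mice at postnatal day 1 (P1), day 14 (P14) and day 56 (P56), with 3 libraries at each age. RNA was depleted of ribosomal RNA. Hearts were pooled for each library, 12 for P1 and 6 or 7 for each later age. The labels' protocols describe both isolated whole cells and nuclei sorted for the cardiomyocyte marker Pcm1, and they speak of tissue taken after surgery without naming an operation for any library. The labels leave unsettled which preparation was used where.

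Hypoxia-inducible factors are pairs of an oxygen-controlled alpha subunit and the stable partner Arnt. When oxygen is plentiful, the Egln enzymes hydroxylate prolines of the alpha subunit, Vhl binds the modified protein and directs it to the proteasome, and Hif1an hydroxylates an asparagine that blocks coactivator binding. When oxygen is scarce the alpha subunit accumulates and drives genes of glycolysis, vessel growth and, as a brake, Egln3 and Egln1 themselves. The heart passes at birth from the low oxygen of fetal blood to air breathing. The alpha subunits are controlled mainly through protein stability, which transcript counts do not measure.

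The start-site regions of 4 of these genes are shown, 2 alpha subunits whose transcripts moved in opposite directions after P14 and 2 known targets of the factors. The letters are the 250 bases before the start site (RefSeq, GRCm38.p6), read 5′ to 3′ along the gene, and none overlaps an exon that GENCODE M21 gives the same gene. RefSeq's Hif1a start lies inside the longer gene span that GENCODE gives. Capitals mark the core of the hypoxia response element, ACGTG or GCGTG, on either strand.
Hif1a (chr12:73907617-73907866, plus strand): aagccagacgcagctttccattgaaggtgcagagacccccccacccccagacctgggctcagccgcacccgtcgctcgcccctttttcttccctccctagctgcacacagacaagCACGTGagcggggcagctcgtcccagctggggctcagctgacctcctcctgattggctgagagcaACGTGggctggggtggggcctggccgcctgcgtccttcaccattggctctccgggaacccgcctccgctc
Hif3a (chr7:17062428-17062677, minus strand): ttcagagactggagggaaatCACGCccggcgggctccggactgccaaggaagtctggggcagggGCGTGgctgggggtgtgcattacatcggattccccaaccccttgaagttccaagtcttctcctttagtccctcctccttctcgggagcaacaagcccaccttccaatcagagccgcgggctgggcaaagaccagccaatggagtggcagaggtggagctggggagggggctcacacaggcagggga
Egln3 (chr12:54203875-54204124, minus strand): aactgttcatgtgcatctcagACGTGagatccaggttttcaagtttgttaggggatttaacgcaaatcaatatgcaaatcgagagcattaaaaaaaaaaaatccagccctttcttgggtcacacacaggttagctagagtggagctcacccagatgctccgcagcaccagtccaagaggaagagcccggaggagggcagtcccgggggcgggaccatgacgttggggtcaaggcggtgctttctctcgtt
Vegfa (chr17:46032378-46032627, minus strand): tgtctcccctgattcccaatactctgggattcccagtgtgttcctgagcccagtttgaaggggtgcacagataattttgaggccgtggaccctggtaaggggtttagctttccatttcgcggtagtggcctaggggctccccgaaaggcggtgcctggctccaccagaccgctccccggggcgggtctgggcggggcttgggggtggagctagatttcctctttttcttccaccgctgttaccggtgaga
Positions count the first matching base before the start site. The Hif1a window held ACGTG at −134 and −70, and the first of these stands inside CACGTG, the E-box letters, so that it also matched on the other strand at −135. The Hif3a window held GCGTG at −230 (other strand) and −186, the Egln3 window held ACGTG at −229, and the Vegfa window held neither core. Of 32851 RefSeq windows of the same length, 38.6% held at least 1 match to either core, 16.6% held ACGTG, 28.2% held GCGTG and 6.02% held CACGTG. RefSeq windows were found for 9 of the 10 genes, 11 windows in all, and 8 of the 11 held a match. Egln1 (GCGTG at −126 and ACGTG at −68), Egln2 (4 matches in 1 window and 1 in the other) and Arnt (GCGTG at −29) were among those, while Vhl and Hif1an had none. A second Vegfa window, mostly within exons, held 2. GC content ran from 48% to 86% among the 11 windows. A match is a run of letters and was not tested as a binding site. Bases outside the 250 of each window were not searched, so a window without a match does not show that a gene lacks the element.

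Library totals lay between 49190887 and 58538025 counts at P1, between 36619799 and 38878181 at P14, and between 45866453 and 49535917 at P56. Cardiomyocyte markers were abundant in every library, with a summed level of 10 markers between 51000 and 90600 CPM (counts relative to the library total, with totals scaled by TMM). Most of that sum came from Ttn (mean 31900 to 44400 CPM by age) and Ryr2 (16200 to 19200 CPM). The summed level of 15 endothelial markers lay between 80.8 and 112 CPM at P1, 261 and 666 CPM at P14, and 44.9 and 113 CPM at P56. Fibroblast markers, 12 in all, summed to 202 to 365, 233 to 850 and 71.2 to 152 CPM in the same order of ages. No measured marker of another cell type was without counts at any age. The P14 libraries stood apart from each other in this content, with 666, 421 and 261 CPM of endothelial markers in replicates 1, 2 and 3. The mean log2 CPM of the endothelial markers is called the endothelial score, and that of 53 markers of endothelium, fibroblasts, leukocytes, smooth muscle and pericytes, epicardium and erythroid cells the marker score. Of the 53 markers, 37 rose and 4 fell between P14 and P1 (median log2 change 1.89), 35 fell between P56 and P14 (median −2.15), and 10 rose and 15 fell between P56 and P1 (median −0.50). Every P14 library had a higher score of either kind than every other library, so the scores and P14 are in part confounded.

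Between P14 and P1, 4 of the 10 genes rose and 3 fell at an adjusted p under 0.05 (quasi-likelihood test of edgeR, Benjamini-Hochberg over 15817 genes). Among all genes 55.9% passed in that comparison, 28.4% upward and 27.5% downward. Between P56 and P14, 3 rose and 4 fell, where 56% of all genes passed (27.5% upward, 28.5% downward). Over all genes, 4356 were higher and 4504 lower without a covariate. With the marker score these became 2574 and 2444, and with the endothelial score 2239 and 1991. Of the 10 genes, the fits with either score called 1 higher (Hif1a) and 3 lower (Hif3a, Egln1 and Vegfa). Arnt, Egln3, Epas1, Egln2 and Hif1an lost the call there, and Egln1 and Vegfa gained it. Between P56 and P1, 5 rose and 4 fell, where 62.6% of all genes passed (30.9% upward, 31.7% downward). The later step differed from the earlier one upward for 2 genes and downward for 5, where 50% of all genes passed (24.1% and 26%). Without P14 replicate 2 these 7 calls became 4 (1 upward, 3 downward). With either score they became 5, as Arnt, Egln2 and Hif1an lost the call and Vhl gained it. Over all genes, 3809 upward and 4107 downward calls became 2922 and 3360 without P14 replicate 2. They became 2587 and 2727 with the marker score, and 2296 and 2327 with the endothelial score. Every one of the 10 differed among the ages in the joint test (largest adjusted p = 0.0154, for Vhl), as did 78% of all genes. In that test Arnt was not past the threshold with the marker score (adjusted p = 0.274) or the endothelial score (0.215), nor was Vhl without P1 replicate 1 (0.0817) or P1 replicate 3 (0.0501). The median log2 change of the 10 was 0.081 at the first step and −0.024 at the second, against 0.001 and −0.019 over all genes. The genes had no common direction. In bulk libraries, fewer cells of a type and less RNA per cell cannot be told apart, for every gene below.

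**Figure D1:**
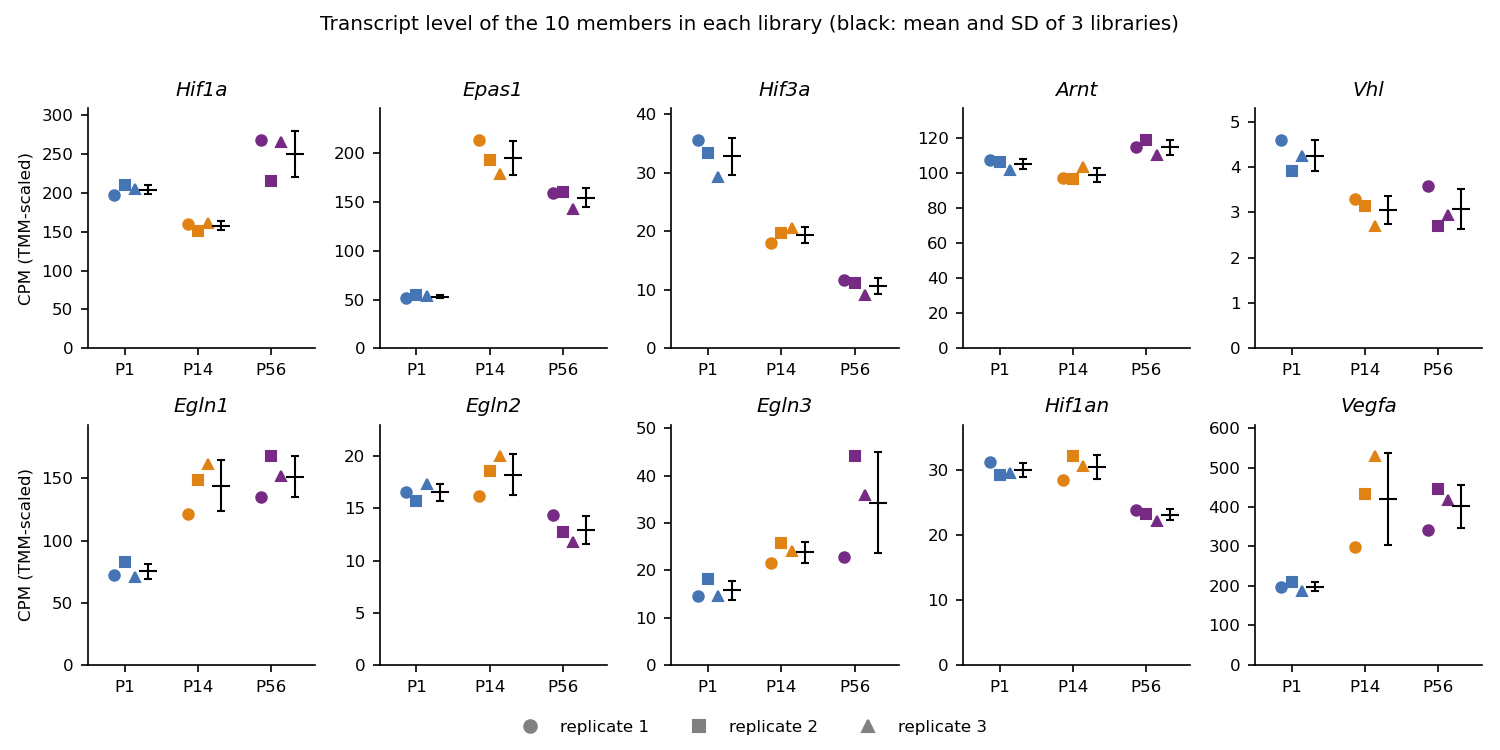
Transcript level of each of the 10 genes (y axis, CPM from 0) in the 3 libraries of P1, P14 and P56 (x axis), with symbol shape giving the replicate and black bars the mean and SD of 3 libraries. Epas1, Egln1 and Vegfa are higher at P14 and P56 than at P1, Hif3a is lower at each later age, and Hif1a is lowest at P14.

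Among the alpha subunits, Epas1 had the largest change of a single step. Epas1 encodes the alpha subunit that is prominent in endothelium and is also made in other cells (ENSMUSG00000024140, GRCm38 chr17:86753700-86833410). It stood at 51.38, 54.45 and 53.21 CPM in the P1 libraries, at 213.3, 192.9 and 178.8 CPM at P14, and at 158.9, 160.2 and 142.8 CPM at P56. No 2 ages overlapped, and P14 was the highest. The log2 change from P1 to P14 was 1.88 ± 0.08 (SE), a 3.68-fold difference (adjusted p = 1.23e-07), and that from P14 to P56 was −0.34 ± 0.07 (adjusted p = 0.00332). At P56 the gene was still 2.9-fold above P1 (adjusted p = 1.23e-07). The steps differed from each other by −2.22 ± 0.12 (adjusted p = 3.52e-06).

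Endothelial transcripts and Epas1 both rose from P1 to P14 and fell from P14 to P56. The endothelial markers all rose in the first interval (15 of 15, median log2 change 2.25) and all fell in the second (median −2.77). Between P56 and P1 the summed endothelial level overlapped (44.9 to 113 CPM against 80.8 to 112), and Epas1 did not overlap. Within P14 the library with most endothelial transcripts, replicate 1, also had most Epas1, and replicate 3 had least of both. At P1 replicate 2 had the least endothelial transcripts (80.8 CPM) and the most Epas1 (54.45 CPM). At P56 replicate 3 had least of both, while replicate 1 had most endothelial transcripts (113 CPM) and replicate 2 most Epas1 (160.2 against 158.9 CPM). These orders were not tested. With the endothelial score as a covariate, the rise to P14 was 1.60 (adjusted p = 1.34e-06), while the change from P14 to P56 was 0.01 (adjusted p = 0.982). Adjusting for the marker score gave −0.05 (adjusted p = 0.794). The Epas1 difference between P56 and P1 was 1.60 and 1.62 in these fits. Every P14 library had a higher score than every other library, so score and age are in part confounded in these fits. The cause of the Epas1 changes was not tested.

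**Figure D2:**
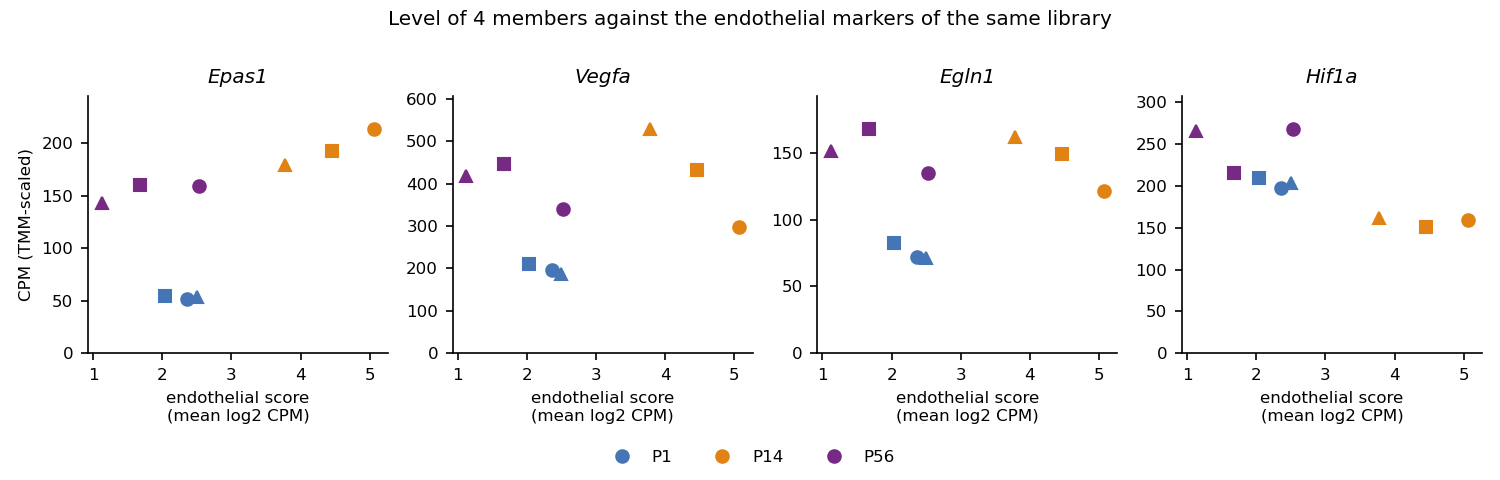
CPM of Epas1, Vegfa, Egln1 and Hif1a (y axes, from 0) against the endothelial score of the same library (x axis, mean log2 CPM of 15 markers), with 9 libraries coloured by age and the replicate given by shape (circle 1, square 2, triangle 3). At P14 the library with the highest score, 5.07, has the highest Epas1 and the lowest Vegfa and Egln1 of its age.

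Hif1a had its lowest level at P14. Hif1a encodes the broadly expressed alpha subunit behind most of the glycolytic response (ENSMUSG00000021109, GRCm38 chr12:73901375-73947530). Its levels were 197.5, 209.5 and 204.0 CPM at P1, 159.5, 150.7 and 161.6 CPM at P14, and 267.8, 215.2 and 265.6 CPM at P56. All 3 P14 libraries lay below the other 6, a placing that 11.7% of all genes shared, and the P56 libraries lay above those of P1. The log2 change was −0.37 ± 0.08 from P1 to P14 (adjusted p = 0.00369) and 0.67 ± 0.08 from P14 to P56 (adjusted p = 0.000136). The difference between these intervals was itself past the threshold (1.04 ± 0.15, adjusted p = 0.000385), and at P56 the gene was 0.29 ± 0.08 above P1 (adjusted p = 0.011). With the endothelial score as a covariate the change to P14 was −0.39 (adjusted p = 0.0773), and with the marker score it was −0.37 (adjusted p = 0.0353).

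An annotated antisense gene, Gm15283, shares 330 exonic bases with Hif1a, and the sources used here do not say whether counting used strand. Gm15283 averaged 8.22 ± 0.56 CPM at P1, 3.81 ± 0.97 CPM at P14 and 25.8 ± 5.31 CPM at P56 (SD, n = 3 each). Its log2 change was −1.11 ± 0.20 from P1 to P14 (adjusted p = 0.00101) and 2.76 ± 0.20 from P14 to P56 (adjusted p = 5.9e-06). Reads of the overlapping stretch cannot be told apart without strand, and the size of any exchange was not tested. Gm15283 was named after its values were seen.

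Hif3a fell at both steps. Hif3a encodes an alpha subunit with splice forms that restrain the other factors (ENSMUSG00000004328, GRCm38 chr7:17031507-17062427). Its libraries held 35.65, 33.47 and 29.36 CPM at P1, 17.96, 19.66 and 20.61 CPM at P14, and 11.62, 11.23 and 9.13 CPM at P56. The 3 ages did not overlap. The log2 change was −0.76 ± 0.11 from P1 to P14 (adjusted p = 0.000305), −0.86 ± 0.11 from P14 to P56 (adjusted p = 0.00018) and −1.62 ± 0.11 over the whole span (adjusted p = 1.11e-06). The step sizes did not differ past the threshold (difference −0.11, 95% interval −0.54 to 0.32). Each of these calls held under every alternative run, including both marker scores as covariates. The counts do not separate splice forms.

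Per length, the make-up of the alpha subunit transcripts shifted toward Epas1 at P14. Each gene's CPM was divided by the length of its annotated exons, and the 3 genes were summed. At P1 Hif1a held 70.6% ± 0.78 of that sum, at P14 41.4% ± 2.15, and at P56 59.1% ± 4.09 (SD, n = 3 libraries each). Epas1 held 19.4% ± 0.24, 54.1% ± 2.58 and 38.7% ± 3.81 in the same order of ages. The Epas1 share exceeded that of Hif1a in each P14 library and in none of the P1 or P56 libraries. The lead at P14 depended on the length used: with the longest transcript in place of all exons, Epas1 held 49.3% (46.4 to 51.4) and Hif1a 46.5% (44.9 to 49.0) at P14, and the ranges overlapped. Hif3a held 10% ± 1.02, 4.50% ± 0.50 and 2.23% ± 0.31. The summed level of the 3 genes was 48.9 ± 1.19 CPM per kb at P1, 64.5 ± 2.98 CPM per kb at P14 and 71.5 ± 4.40 CPM per kb at P56. These shares are a description with no test, and reads from introns, if they were counted, would alter them.

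**Figure D3:**
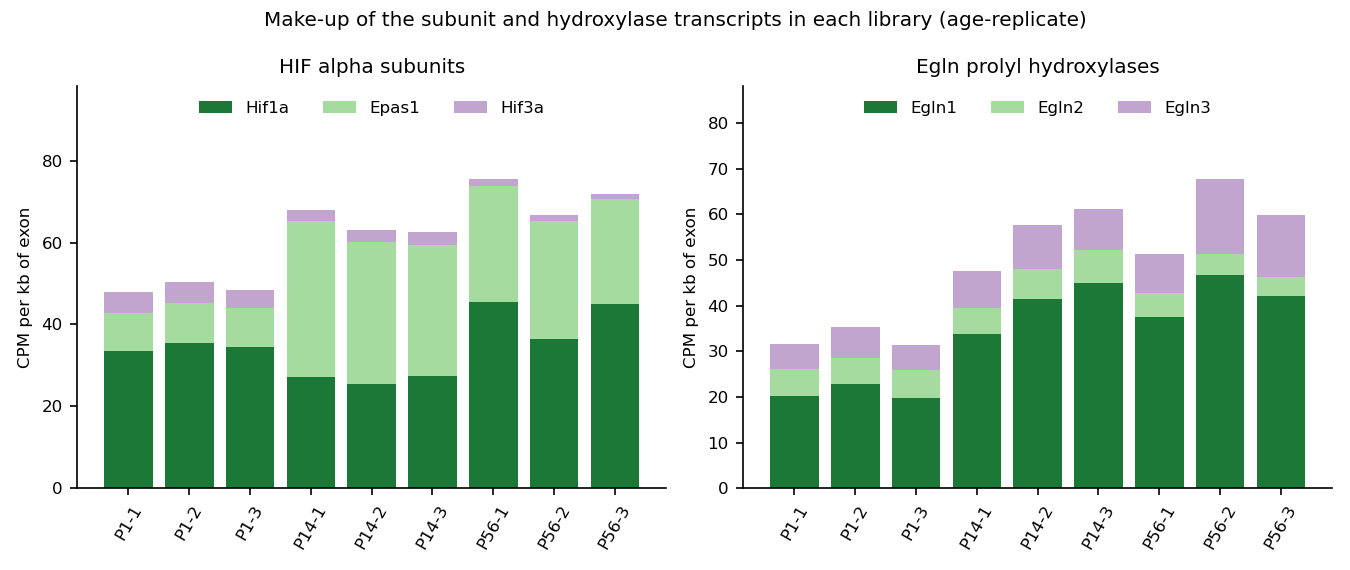
CPM per kb of annotated exon (y axis, from 0), stacked for the alpha subunits Hif1a, Epas1 and Hif3a (left) and the hydroxylases Egln1, Egln2 and Egln3 (right), one bar for each of the 9 libraries named by age and replicate. Epas1 takes the widest band at P14 and Hif1a at P1 and P56, and Egln1 takes 63.0% to 73.5% of the hydroxylase sum in every library.

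Arnt, the shared partner that also serves the aryl hydrocarbon receptor, varied little (ENSMUSG00000015522, GRCm38 chr3:95434388-95497240). It averaged 105.4 ± 2.99 CPM at P1, 99.1 ± 3.76 CPM at P14 and 115.0 ± 4.33 CPM at P56 (SD, n = 3 each). From P1 to P14 the change was −0.09, with a 95% interval of −0.21 to 0.03 (adjusted p = 0.181). At P56 it was 0.22 ± 0.05 above P14 (adjusted p = 0.00671), and that call was lost with the marker score (0.16, adjusted p = 0.339) or the endothelial score (0.17, adjusted p = 0.404) as a covariate. Over the whole span the change was 0.13 ± 0.05 (adjusted p = 0.0616), past the threshold in DESeq2 (0.14, adjusted p = 0.0258) and with RLE scaling (0.14, adjusted p = 0.0433). Per kb of exon, Arnt at 12.4 to 14.4 CPM per kb on average lay below the alpha subunit sum at each age.

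Among the prolyl hydroxylases Egln1 was higher at both later ages than at P1. Egln1 encodes the main oxygen sensor of most tissues (ENSMUSG00000031987, GRCm38 chr8:124908587-124949324). It stood at 72.34, 82.33 and 71.04 CPM at P1, at 121.4, 148.9 and 161.6 CPM at P14, and at 134.8, 167.7 and 151.5 CPM at P56. The P14 and P56 libraries overlapped each other and lay above all of P1. The log2 change from P1 to P14 was 0.94 ± 0.12 (adjusted p = 0.000112), and that over the whole span was 1.01 ± 0.12 (adjusted p = 3.69e-05). The later step was 0.07, with a 95% interval of −0.19 to 0.33 (adjusted p = 0.617), and it differed from the earlier one by −0.86 ± 0.20 (adjusted p = 0.00506). Adjusted for the marker score the later step was −0.46 and passed the threshold (adjusted p = 0.0404), as it did for the endothelial score (−0.55, adjusted p = 0.0463).

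Egln3, the hydroxylase most strongly induced by the factors in many cell types, reached its highest level at P56 (ENSMUSG00000035105, GRCm38 chr12:54178981-54203860). Its libraries held 14.58, 18.16 and 14.48 CPM at P1, 21.49, 25.82 and 24.06 CPM at P14, and 22.88, 44.11 and 35.89 CPM at P56. The P14 and P56 libraries both lay above P1, and P56 replicate 1 lay within the P14 range. The log2 change over the whole span was 1.12 ± 0.21 (adjusted p = 0.000899) and held under every alternative. The rise from P1 to P14 was 0.60 ± 0.21 (adjusted p = 0.0319) and was not past the threshold without P1 replicate 1 (0.54, adjusted p = 0.0979), P1 replicate 3 (0.54, adjusted p = 0.0991), P14 replicate 2 (0.53, adjusted p = 0.0985) or P14 replicate 3 (0.59, adjusted p = 0.057). Adjusted for the marker score it was 1.11 (adjusted p = 0.00467), and for the endothelial score 1.38 (adjusted p = 0.00488). The rise from P14 to P56 was 0.53 ± 0.20 (adjusted p = 0.0499) and lost its call in 12 of 17 alternatives. Without P56 replicate 2 it was 0.30 (adjusted p = 0.204), without P56 replicate 1 it was 0.75 (adjusted p = 0.00159), and adjusted for the marker score it was −0.22 (adjusted p = 0.681).

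Egln2, a hydroxylase of the same family that low oxygen does not induce, fell after P14 (ENSMUSG00000058709, GRCm38 chr7:27158658-27166802). It averaged 16.5 ± 0.82 CPM at P1, 18.2 ± 1.94 CPM at P14 and 12.95 ± 1.34 CPM at P56 (SD, n = 3 each). From P1 to P14 the change was 0.14, with a 95% interval of −0.09 to 0.38 (adjusted p = 0.273), and the libraries overlapped. By P56 it fell by 0.49 ± 0.11 on the log2 scale relative to P14 (adjusted p = 0.0031) with no overlap. Adjusted for the marker score that change was −0.49 (adjusted p = 0.103), and for the endothelial score −0.43 (adjusted p = 0.225). Over the whole span it fell by 0.35 ± 0.11 (adjusted p = 0.0148), a call lost without P1 replicate 3 (−0.32, adjusted p = 0.0551) or P56 replicate 3 (−0.29, adjusted p = 0.0596).

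Egln1 was the main hydroxylase transcript per length at every age. Of the sum of the 3 it held 63.9% ± 0.94 (P1), 72.1% ± 1.34 (P14) and 70.8% ± 2.19 (P56). The Egln2 share was 18.1% ± 2.01, 11.8% ± 0.32 and 7.92% ± 1.85 in the same order of ages, and the Egln3 share was 18% ± 1.13, 16.2% ± 1.21 and 21.3% ± 4.00. The Egln2 and Egln3 shares overlapped at P1 (15.9% to 19.7% and 17.3% to 19.3%), and Egln3 lay above Egln2 in every P14 and P56 library. This order depended on the length used. With the longest transcript Egln2 lay wholly above Egln3 at P1 (20% to 24.6% and 16.3% to 18.4%), they overlapped at P14 (14.7% to 15.5% and 14.2% to 16.3%), and Egln3 lay above Egln2 at P56 (16.2% to 23.9% and 8.7% to 12.9%). The summed hydroxylase level was 32.8 ± 2.23 CPM per kb at P1, 55.5 ± 7.03 CPM per kb at P14 and 59.6 ± 8.26 CPM per kb at P56. Reads from introns, if they were counted, would alter these shares and sums. The gene spans differ, with 40738 bases for Egln1, 24880 for Egln3 and 8145 for Egln2.

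Hif1an, which encodes the asparaginyl hydroxylase that silences the factors' activation domain, was lower at P56 (ENSMUSG00000036450, GRCm38 chr19:44562850-44576274). It averaged 30.0 ± 1.08 CPM at P1, 30.5 ± 1.84 CPM at P14 and 23.1 ± 0.85 CPM at P56 (SD, n = 3 each). All P56 libraries (22.2 to 23.9 CPM) lay below those of both earlier ages (28.5 to 32.2 CPM). The change from P1 to P14 was 0.02, with a 95% interval of −0.13 to 0.17 (adjusted p = 0.821). Relative to P14 it fell by 0.40 ± 0.07 (adjusted p = 0.000955), and with the scores as covariates this was −0.39 (marker score, adjusted p = 0.0672) and −0.37 (endothelial score, adjusted p = 0.134). Over the whole span it fell by 0.38 ± 0.07 (adjusted p = 0.000892), a call that held under every alternative.

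Vhl, the substrate-binding subunit of the ligase, had the lowest level per length of the 10 at each age (ENSMUSG00000033933, GRCm38 chr6:113623959-113631633). It averaged 4.25 ± 0.34 CPM at P1, 3.05 ± 0.31 CPM at P14 and 3.08 ± 0.45 CPM at P56 (SD, n = 3 each), from 98 to 291 counts per library. Vhl has the shortest span of the 10 (7675 bases), and reads from introns, if they were counted, would affect its place per length. It fell by 0.48 ± 0.14 from P1 to P14 (adjusted p = 0.0173) and by 0.47 ± 0.14 over the whole span (adjusted p = 0.0167). The first call was lost without P1 replicate 1 (−0.42, adjusted p = 0.0694) or P14 replicate 3 (−0.40, adjusted p = 0.0548), and the second without P1 replicate 1 (−0.41, adjusted p = 0.0685), P56 replicate 2 (−0.38, adjusted p = 0.0669) or P56 replicate 3 (−0.44, adjusted p = 0.0542) and with the marker score (−0.32, adjusted p = 0.0559). The difference between P56 and P14 was 0.01, with a 95% interval of −0.32 to 0.34 (adjusted p = 0.943). With the marker score as a covariate Vhl stood at −0.84 for the earlier step (adjusted p = 0.00505) and 0.52 for the later (adjusted p = 0.165), and the difference between them passed the threshold (1.36, adjusted p = 0.0396). The endothelial score gave −0.98 (adjusted p = 0.00893), 0.63 (adjusted p = 0.155) and 1.61 (adjusted p = 0.0471).

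Vegfa, the vessel growth factor that cardiomyocytes supply to the endothelium and a known target of the factors, was higher at both later ages (ENSMUSG00000023951, GRCm38 chr17:46016993-46032369). It stood at 197.5, 210.0 and 187.3 CPM at P1, at 297.5, 433.3 and 528.5 CPM at P14, and at 341.3, 446.9 and 418.1 CPM at P56. Every later library exceeded every P1 library, and P14 spread from below to above the P56 range. The log2 change from P1 to P14 was 1.08 ± 0.18, a 2.12-fold difference (adjusted p = 0.000726), and that over the whole span was 1.02 ± 0.18 (adjusted p = 0.000728). Between P56 and P14 the difference was −0.06, with a 95% interval of −0.46 to 0.34 (adjusted p = 0.786), and this step differed from the earlier one by −1.14 ± 0.30 (adjusted p = 0.0111).

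The spread of Vegfa at P14 ran opposite to the endothelial transcripts of the same libraries. Replicate 1, with 666 CPM of endothelial markers and the lowest summed level of cardiomyocyte markers of that age (59100 CPM), had the least Vegfa. Replicate 3, with 261 CPM of endothelial and 90600 CPM of cardiomyocyte markers, had the most. Adjusted for the marker score, Vegfa rose by 1.70 to P14 (adjusted p = 1.47e-06) and its later step was −0.96, past the threshold (adjusted p = 0.00263). Adjusted for the endothelial score these were 1.93 (adjusted p = 1.25e-05) and −1.13 (adjusted p = 0.00525). Egln1 took the same order as Vegfa over the 3 libraries of each age, lowest in replicate 3 and highest in replicate 2 at P1, lowest in replicate 1 and highest in replicate 3 at P14, and lowest in replicate 1 and highest in replicate 2 at P56. These orders rest on 3 libraries an age and were not tested.

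**Figure D4:**
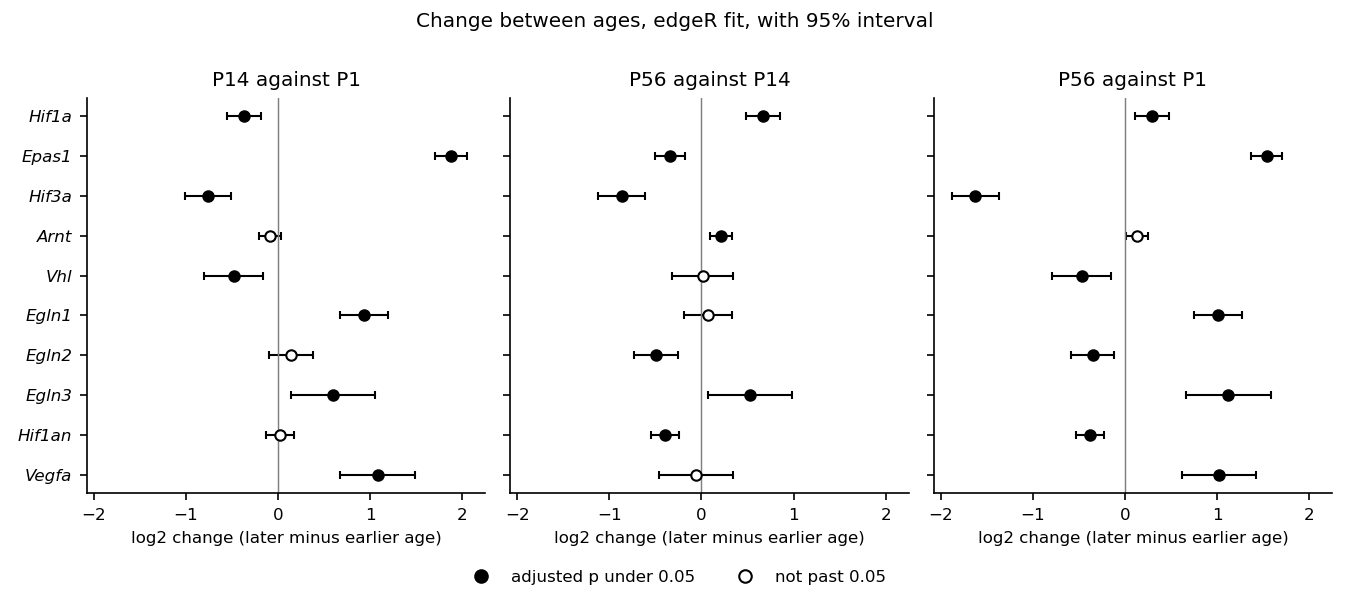
Log2 change of each of the 10 genes (rows) from edgeR's fit for P14 against P1, P56 against P14 and P56 against P1 (x axes, later minus earlier age), with bars giving the 95% interval and filled points an adjusted p under 0.05. Epas1 has the largest rise to P14 (1.88) and Hif3a the largest fall over the whole span (−1.62).

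Per kb of exon, the order of mean levels at P1 was Vegfa (46.3 CPM per kb), Hif1a (34.6), Egln1 (20.9), Arnt (13.2), Epas1 (9.48), Egln3 (5.91), Egln2 (5.90), Hif3a (4.89), Hif1an (4.55) and Vhl (1.42). Egln3 and Egln2 overlapped there, as did Hif3a and Hif1an. At P14 it was Vegfa (97.96), Egln1 (40.1), Epas1 (34.9), Hif1a (26.7), Arnt (12.4), Egln3 (8.94), Egln2 (6.51), Hif1an (4.61), Hif3a (2.89) and Vhl (1.02), with Egln1 and Epas1 overlapping. At P56 the order was Vegfa (93.8), Hif1a (42.3), Egln1 (42.1), Epas1 (27.5), Arnt (14.4), Egln3 (12.9), Egln2 (4.63), Hif1an (3.50), Hif3a (1.59) and Vhl (1.03). At P56 the libraries of Hif1a and Egln1 overlapped, as did those of Arnt and Egln3. The place of Arnt depended on the length used, since its annotated exons cover 8007 bases and its longest transcript 4325. With the longest transcript, a setting chosen after seeing the data, Arnt averaged 24.4 CPM per kb at P1, above Egln1 (20.9), and 26.6 CPM per kb at P56, above Egln3 (12.9) and overlapping Epas1 (27.9). With that length Egln2 (7.84) also lay above Egln3 (5.91) at P1. Reads from introns, if they were counted, would alter these orders too. Vegfa exceeded 97.2% of genes per length at P1 and 98.5% at P56, and Hif3a exceeded 66.9% and 43.5% at the same ages. P14 and P1 libraries did not overlap for 7 of the 10 genes (63.9% of all genes), P56 and P14 libraries for 6 (59.5%), and P56 and P1 libraries for all 10 (72.2%).

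Genes with the most similar profile were found by Pearson correlation of log2 CPM over the 9 libraries, among genes of at least 10 CPM on average. The 9 points fall into 3 ages, so the measure mostly reflects the age means, and no p is given. Vegfa was nearest to Macrod1 (r = 0.995, with 123 CPM at P1 and 332 at both P14 and P56), then Zcchc17 and Lrrc20 (r = 0.993 each). Egln1 was nearest to Pcbd2 (0.998), Mlxipl (0.997) and Zfp710 (0.996). Epas1 was nearest to Fbln1 (0.991), Taok3 and Wwtr1 (0.990 each), of which Fbln1 stands in the fibroblast marker list. Of the 12 genes in that list, only Fbln1 was called higher at P56 than at P1, and 5 were called lower. The median log2 change of the list over that span was −1.07. Hif1a was nearest to Bche (0.984), Hook1 and Rnf149 (0.983 each), and Hif3a to Crybg3 (0.993), Flot2 (0.992) and Trib2 (0.989). The nearest gene was Fn3k for Arnt (0.977), Stam2 for Vhl (0.971), Eci1 for Egln2 (0.971), Taf12 for Egln3 (0.979) and Puf60 for Hif1an (0.982).

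Several cofactors of the pathway were lower at P14 than at P1. Of 10 partners, chaperones and coactivators, 6 fell in edgeR and the other 4 did not pass the test (median log2 change −0.23, against 0.001 over all genes), where 27.5% of all genes fell. The neuronal Arnt paralog Arnt2 fell by 1.78 ± 0.19 (adjusted p = 3.76e-05), and the chaperone genes Hsp90aa1 and Hsp90ab1, whose products hold the alpha subunits before activation, showed changes of −1.18 ± 0.28 (adjusted p = 0.0056) and −0.76 ± 0.13 (adjusted p = 0.000856). The coactivator genes Ep300, Crebbp and Ncoa2 fell less (−0.29, −0.22 and −0.24). At the second step Ep300, Ncoa1 and Ncoa2 rose by 0.23, 0.22 and 0.16, while Arnt2, the clock factor gene Arntl and the Ep300-binding Cited4 fell (−2.46, −2.21 and −1.06). In the span from P1 to P56, Ncoa1 rose by 0.16 (adjusted p = 0.0296) and 6 genes fell, with Arnt2 at −4.24 ± 0.23 (adjusted p = 1.99e-07), Arntl at −1.81, Cited4 at −1.18, Hsp90aa1 at −0.72, Hsp90ab1 at −0.71 and Crebbp at −0.25. Over that span 30.9% of all genes rose and 31.7% fell.

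The Vhl ligase list showed small steps, given as log2 changes here and for the lists that follow. From P1 to P14, 6 of 12 genes fell and 2 rose (median −0.17), where 27.5% and 28.4% of all genes did. The ligase genes Tceb2, Rbx1, Cul2 and Tceb1, which encode elongin B, the RING subunit, the cullin scaffold and elongin C, fell (−0.53, −0.37, −0.31 and −0.30). The other falls were those of Siah1b (−0.93, from a level of 1.44 CPM at P1) and Rack1 (−0.42), both linked to turnover of pathway proteins. Os9 and the deubiquitinase gene Usp33 rose by 0.62 and 0.18. At the second step Os9 (0.51), Cul2 (0.32), Tceb1 (0.28) and Usp33 (0.19) rose, and P4htm, which encodes a membrane-bound prolyl hydroxylase, and Rack1 fell (−0.58 and −0.34; median of the list 0.12). At P56 Os9 was 1.13 ± 0.09 (adjusted p = 3.55e-06), Siah2, which encodes a ligase for Egln proteins, 0.68 ± 0.15 (adjusted p = 0.00316) and Usp33 0.37 ± 0.06 (adjusted p = 0.000227) above P1, and 5 of the 12 were lower. Among all genes 27.5% rose and 28.5% fell at the second step, and 30.9% and 31.7% over the whole span.

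Glycolytic targets of the factors split at both steps. Of 20 genes, 6 rose and 7 fell at the first step (median −0.001), where 28.4% and 27.5% of all genes did. At the second, 4 rose and 3 fell (median 0.076), where 27.5% and 28.5% of all genes did. The hexokinase gene Hk2 rose at both steps and averaged 64.3 ± 3.77 CPM at P1, 162 ± 45 CPM at P14 and 259 ± 7.7 CPM at P56 (log2 change over the span 2.01 ± 0.17, adjusted p = 4.42e-06). Slc2a1, the glucose transporter gene prominent in the fetal heart, was lowest at P14, with 11 ± 0.76 CPM at P1, 5.10 ± 0.89 CPM at P14 and 14.4 ± 1.08 CPM at P56 (−1.11 ± 0.13 and 1.50 ± 0.13 for the steps, adjusted p = 8.06e-05 and 1.79e-05). Pdk1, which encodes the kinase that keeps pyruvate out of mitochondria, also fell and then rose (−0.54 ± 0.07 and 0.46 ± 0.07, adjusted p = 0.000135 and 0.00035). The lactate exporter gene Slc16a3 fell by 2.18 ± 0.32 at the first step (adjusted p = 0.000302), beside Eno1 (−0.83) and Tpi1 (−0.62). Pgam1, Pfkp and Pfkl rose by 0.47, 0.41 and 0.37 at that step. Gapdh rose by 0.64 at the second, while Pfkfb4, Pfkp and Hk1 fell (−1.4, −0.53 and −0.23). Between P56 and P1, 5 of the 20 rose and 5 fell, where 30.9% and 31.7% of all genes did. Gapdh, Tpi1, Eno1 and Pgam1 have near-identical pseudogene copies, so their counts are uncertain.

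Other targets of the factors also moved both ways. Of 33 listed genes, 31 were in the table, and 12 rose and 10 fell at the first step (median 0.15), where 28.4% and 27.5% of all genes did. The largest rises of that step were those of Pdgfb, a growth factor made by endothelium (2.56 ± 0.29, adjusted p = 6.49e-05), Ddit4, a restraint on mTOR (1.75 ± 0.15, adjusted p = 1.01e-05), Stc2, a secreted calcium regulator (1.3 ± 0.1, adjusted p = 6.5e-06) and the mitophagy receptor gene Bnip3 (1.05 ± 0.13, adjusted p = 0.000105). The largest falls were those of the vasodilator gene Adm (−1.04), the lipase inhibitor gene Angptl4 (−0.84), the collagen prolyl hydroxylase gene P4ha1 (−0.82) and the adenylate kinase gene Ak4 (−0.77). Adm had a low level (1.01 CPM at P1 and 0.485 CPM at P14), and its call was near the threshold (adjusted p = 0.047). Pdgfb averaged 2.05 ± 0.23 CPM at P1, 12.1 ± 3.99 CPM at P14 and 2.01 ± 0.69 CPM at P56, high at P14 as the endothelial markers were, and their part in its values was not tested.

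At the second step, where 27.5% of all genes rose and 28.5% fell, 9 of these targets rose and 11 fell (median −0.03). Among those that rose were P4ha1 (0.96 ± 0.15), Ak4 (0.91 ± 0.10) and Plod2, a collagen lysyl hydroxylase gene (0.86 ± 0.08), with adjusted p between 2.76e-05 and 0.000489. Angptl4 (−3.33), Lox (−3.02), Pdgfb (−2.59) and Ddit4 (−2.28) fell most. Lox had a low level, with 2.1 ± 1.22 CPM at P14 and 0.258 ± 0.148 CPM at P56 (SD). The part of other cell types in these falls was not tested. P4ha1 and Ak4 were lowest at P14, as Hif1a was, while Ddit4, Stc2 and Pdgfb of the same list were highest there. Whether any target followed Hif1a was not tested. P4ha1 averaged 53.6 ± 8.16 CPM at P1, 30.2 ± 3.48 CPM at P14 and 59 ± 10.6 CPM at P56. Ak4 averaged 14.4 ± 1.54, 8.43 ± 0.52 and 15.9 ± 0.59 CPM in the same order. Over the whole span, where 30.9% of all genes rose and 31.7% fell, 10 of these targets rose and 8 fell. Among them were P4ha2 (1.54), Bnip3 (1.35) and Plod2 (1.28) upward and Angptl4 (−4.17), Lox (−2.67), Ccng2 (−2.18) and Wsb1 (−1.92) downward.

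**Figure D5:**
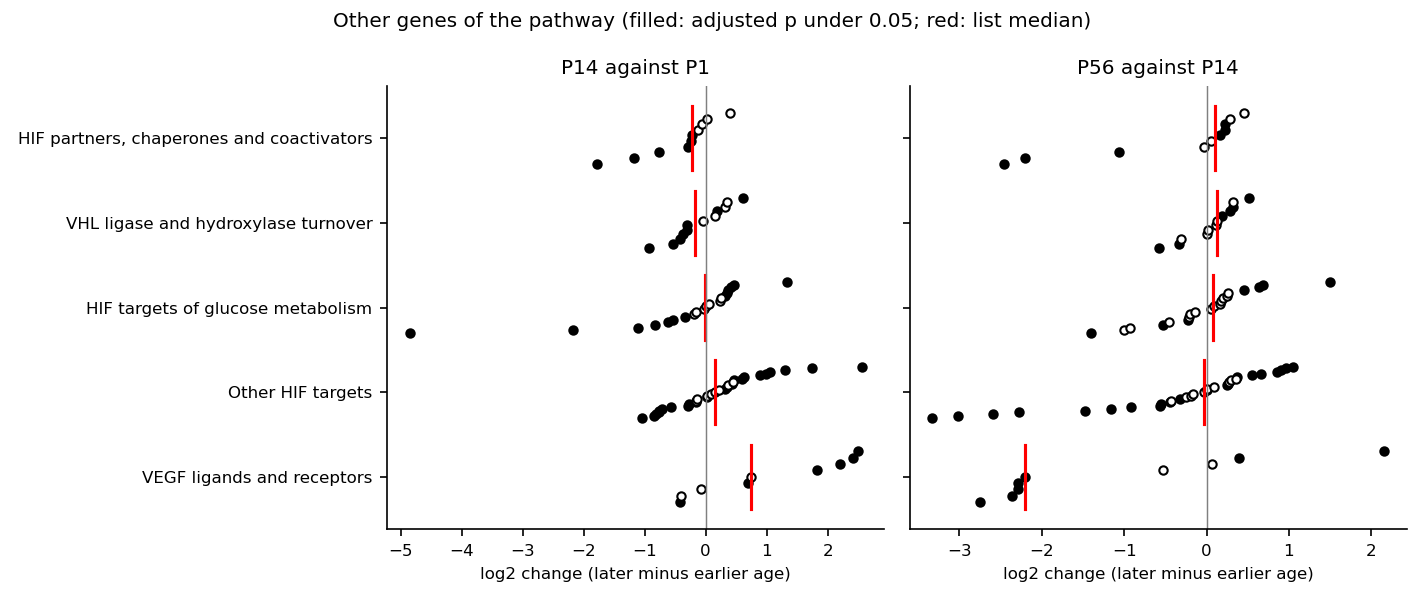
Log2 change (x axes, later minus earlier age) of each gene of 5 lists (rows) for P14 against P1 and P56 against P14, with filled points for an adjusted p under 0.05 and a red line for the list median. The glycolytic and other targets lie on both sides of 0 at both steps, and the VEGF list has a median of 0.75 at the first step and −2.20 at the second.

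The VEGF receptors were high at P14 and low again at P56, as the endothelial markers were. Of 9 ligands and receptors other than Vegfa, 5 rose and 1 fell at the first step, where 28.4% and 27.5% of all genes did. At the second, 2 rose and 5 fell, where 27.5% and 28.5% of all genes did. Flt1, Nrp2, Flt4 and Kdr, receptors carried by endothelium, rose by 2.49, 2.41, 2.21 and 1.83 and then fell (−2.29, −2.75, −2.36 and −2.29), beside median endothelial marker changes of 2.25 and −2.77 whose part in this was not tested. None of these 4 receptor genes passed the threshold between P56 and P1 (log2 −0.47 to 0.20, adjusted p 0.295 to 0.696), while Vegfa did. Figf, the ligand also called Vegfd, rose at both steps, with 1.64 ± 0.02 CPM at P1, 2.67 ± 0.52 CPM at P14 and 12 ± 0.31 CPM at P56 (2.87 ± 0.14 over the span, adjusted p = 1.25e-07). Vegfc, the lymphatic growth factor gene, fell by 2.20 ± 0.45 at the second step (adjusted p = 0.00239). Nrp1, a coreceptor gene, fell by 0.42 at the first step and rose by 0.39 at the second. Vegfb, the ligand known for its abundance in heart muscle, averaged 13.7, 13 and 13.6 CPM at the 3 ages with no call.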

How the data were processed

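RNA was measured in 9 cardiomyocyte libraries, 3 at each of 3 ages. The authors deposited 1 table of raw integer counts per gene and library. The submitters' processing notes list featureCounts 1.4.2, STAR 2.4.0g1, bcl2fastq 2.17.1.14 and the build GRCm38. Neither the counting of exons or whole genes nor the strand setting is given in the sources used here. Gene spans and exon lengths came from GENCODE M21 (GRCm38), which held 15763 of the 15824 gene identifiers, and start-site windows from RefSeq (GRCm38.p6).

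Tests used edgeR 4.0.16 (R 4.3.3): filterByExpr left out 7 genes, library sizes were scaled by TMM, and a single quasi-likelihood model of age covered the 9 libraries (common dispersion 0.0192). P-values were adjusted by Benjamini-Hochberg over 15817 genes, and the design calls the libraries of an age biological triplicates. Log2 CPM used a prior count of 2. Alternatives were RLE scaling, DESeq2 1.42.0, other filters, each library left out, a replicate block, fits of 2 ages, and marker scores as covariates. The code was tested on simulated data. Pairs of libraries of an age differed by more than counting error (chi-square per degree of freedom 5.48 to 101), so none was counted as a duplicate. The members and lists were chosen with earlier results of these data known, so counts over the lists are descriptions. Text names each member, and from each list up to 4 genes per direction, those of largest log2 change among genes called and at least 1 CPM in the higher age, plus genes that complete a short count. One gene that this rule names is not reported here.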

Additional observations from a re-analysis of the deposited data

How the results depend on the processing

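Of the 40 log2 changes of the 10 genes (3 comparisons and the difference between intervals), no leave-one-out fit reversed a called change. Calls of Epas1, Hif3a and Vegfa from P1 to P14 and from P1 to P56, and of Hif1a from P14 to P56, held in every alternative run. Several changes of direction came with covariates for other cell types, from P14 to P56: with the marker score Egln1 stood at −0.46 and Egln3 at −0.22, and with the endothelial score Epas1 stood at 0.01, Egln1 at −0.55 and Egln3 at −0.47. The cause was not tested. Uncalled changes near 0 also turned sign: from P14 to P56 the fits without 1 library gave −0.04 to 0.16 for Egln1, −0.26 to 0.14 for Vegfa and −0.11 to 0.10 for Vhl, and similar turns occurred for Hif1an from P1 to P14 and for Egln3 and, with the endothelial score, Hif3a (0.01) in the difference between intervals. Over all genes, 2574 genes were higher and 2444 lower at P56 than at P14 with the marker score, and 2239 and 1991 with the endothelial score, against 4356 and 4504 without either. In the difference between intervals 2727 were lower with the marker score and 2327 with the endothelial score (4107 without), and 2296 were higher with the endothelial score (3809 without). The median of all genes under RLE scaling stayed between −0.017 and 0.01 in the 3 comparisons.

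Replicate numbers did not pair the libraries consistently across ages: same-numbered libraries correlated from −0.22 to 0.49 in their deviations from the age means, over 0.1 in 2 of 9 pairs. Both of these were P14 with P56 (0.49 for replicate 1 and 0.36 for replicate 3), while replicate 2 gave 0.01 there. Whether those ages were paired is not settled. With the replicate block, 4524 genes were higher and 4300 lower at P14 than at P1, and no call of the 10 genes changed. Vhl had the lowest counts of the 10 genes, 98 to 291 per library.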
